A study of Saccharomyces cerevisiae with 10 samples.

Results

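The genes described here encode the enzymes that make and rearrange disulfide bonds in the endoplasmic reticulum (ER) of the yeast Saccharomyces cerevisiae. They are the oxidases ERO1 (YML130C) and ERV2 (YPR037C) and the protein disulfide isomerase family of PDI1 (YCL043C), EUG1 (YDR518W), MPD1 (YOR288C), MPD2 (YOL088C) and EPS1 (YIL005W). Members were chosen by gene symbol from this family definition, and 7 of the 5449 S. cerevisiae genes measured belong to it. Each is read by 1 probe set, and all 7 lie above the background level defined below.

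RNA was measured in bulk cultures that carried prs426GPD-αENaC-HA, a plasmid for the HA-tagged α subunit of the epithelial sodium channel (3 arrays), and in vector control cultures with pRSGPD426 (7 arrays). The labels do not state the genotype of the host strain. All cultures grew at 26 °C in selective medium to mid log phase, and biotin-labelled cRNA was hybridised to single-colour arrays. Each title has a running number, from 1 to 4 for αENaC 1 and 2 and controls 1 and 2, then 6 for αENaC 3 and 5 for control 3, and 11 to 14 for controls 4 to 7. The labels do not say that these sets are batches, but the arrays differ between them, so each difference is also given within numbers 1 to 4 (the first set) and within 5 and 6 (the second set). The series' design text calls the replicates biological. Because cultures were measured in bulk, a larger change in some cells and a smaller one in all cells cannot be told apart.

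Disulfide bonds form between pairs of cysteines as secreted and membrane proteins fold in the ER. Ero1, a flavoprotein that uses FAD, takes electrons from Pdi1 and passes them to oxygen. The oxidised Pdi1 then gives disulfides to its client proteins and can also rearrange wrong ones. The other isomerases share the thioredoxin-like fold of Pdi1, and Erv2 is a smaller FAD-dependent oxidase. Misfolded protein in the ER activates Ire1, which splices the HAC1 messenger RNA, and the Hac1 factor then raises transcription of many ER folding genes. ERO1 and PDI1 are known targets of that response.

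A level here is log2 of a probe set's signal plus 0.03, after quantile normalization, where a signal of 1 is the mean of all probe sets on that array. Differences are αENaC minus control on this log2 scale, which understates the change of low genes. Errors of differences are SE (n = 3 and 7). Fits with the replicate number as a block leave out controls 4 to 7 (n = 3 and 3). The test was limma over 5498 probe sets, with a threshold of 0.05 on the Benjamini-Hochberg adjusted p. The background level was −2.00, the 95th percentile of probe sets named outside S. cerevisiae. The number of arrays limits the precision. URA3, the marker gene of pRS426 plasmids, lay between 3.19 and 3.31 on the αENaC arrays and between 2.74 and 3.79 on the control arrays. The labels could not be set against the αENaC transcript, which was not analysed here. Across probe sets, r was 0.999 between αENaC 1 and 2 and 0.998 between controls 1 and 2. Among controls 5 to 7 it was at least 0.997, while control 4 stood apart from them, with r from 0.980 to 0.985. Some of the spread behind the p-values may therefore be technical.

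Of the 7 genes, ERO1 and MPD2 rose, none fell and 5 did not pass the test. Across all probe sets 1.36% rose and 0.364% fell. The 7 differences ran from −0.21 for ERV2 to 0.89 for ERO1, with a median of 0.35 against 0.02 over all probe sets tested, and 6 of the 7 were positive against 53.8% of all probe sets. The median of the 7 was 0.25 within numbers 1 to 4 and 0.16 within 5 and 6, where that of all probe sets was −0.02 and −0.00098. On 3 of the 7, namely ERO1, MPD1 and MPD2, every αENaC array lay above all 7 controls, as it did on 4.97% of all probe sets, and on none did every αENaC array lie below them (3.62% of all). The difference was positive within both sets for 6 of the 7, against 23.8% of all probe sets. Within numbers 1 to 4 alone limma called 5 of the 7 higher and 1 lower, but in that comparison of 2 with 2 near-identical arrays it also called 28.4% of all probe sets higher and 31.8% lower.

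**Figure D1:**
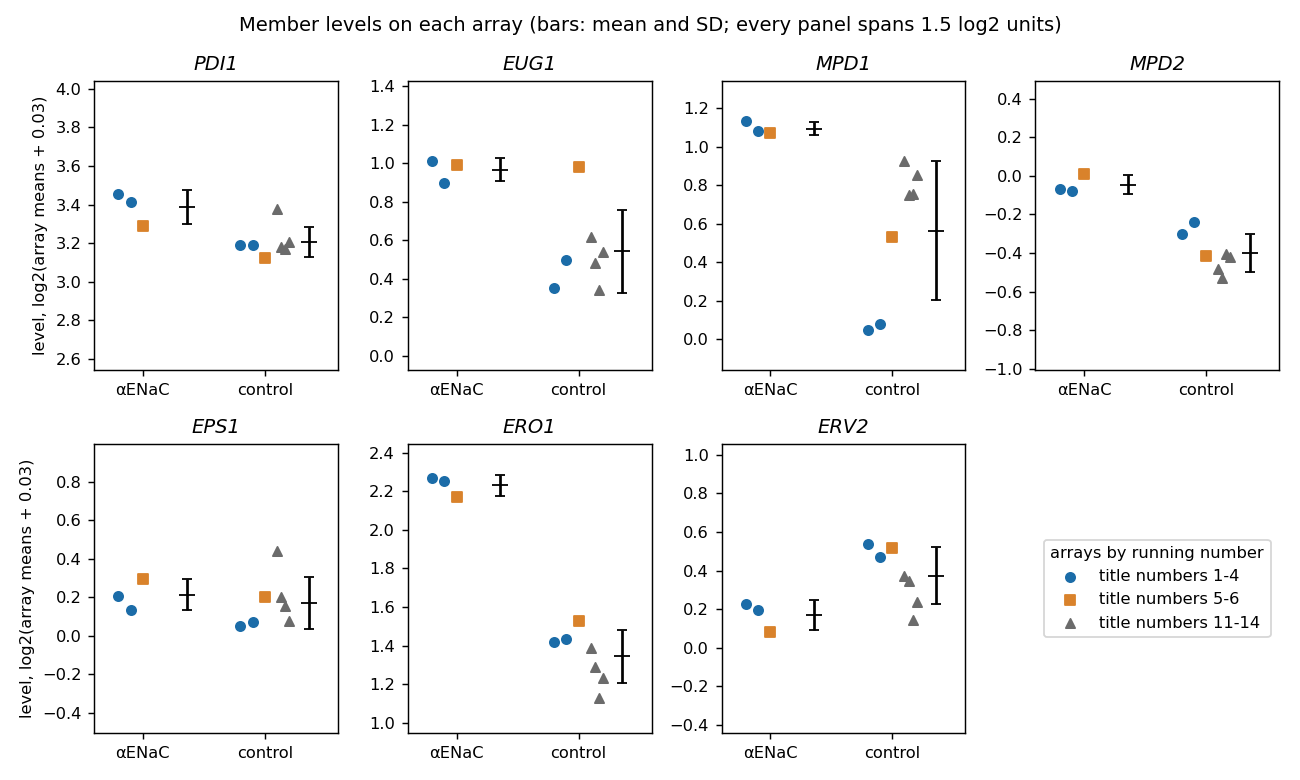
Level of each of the 7 genes on every array, in log2(array means + 0.03), with αENaC arrays left of control arrays in each panel. Symbols mark the running numbers in the titles, and bars give the group mean and SD. ERO1 separates the groups by the widest gap, MPD1 controls differ by set, and EUG1 in control 3 lies at the level of the αENaC arrays.

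ERO1, the essential oxidase that recharges Pdi1, had levels of 2.27, 2.26 and 2.17 on the αENaC arrays. In the controls its lowest level was 1.13, the median 1.39 and the highest 1.53. Every αENaC array was thus above every control, by a gap wider than the whole range of the controls. ERO1 rose by 0.89 ± 0.09 (adjusted p = 0.00126), or 1.85-fold with a 95% interval of 1.61 to 2.12. This was the 32nd highest difference among the 5498 probe sets.

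The same separation was present before quantile normalization. The ERO1 signal was then 4.61, 4.66 and 4.54 array means in αENaC, against a lowest of 2.04, a median of 2.45 and a highest of 2.85 array means in the controls. Within title numbers 1 to 4 the difference was 0.84 and within 5 and 6 it was 0.64, and these effects did not differ past the test (adjusted p = 0.351 for the difference between the sets). Without controls 4 to 7 the rise was 0.77 and still passed (adjusted p = 0.0244), in a comparison that called 0.327% of all probe sets higher and 0.0364% lower. With the replicate number as a block, on αENaC 1 to 3 and controls 1 to 3 only, ERO1 was by construction at the same difference, 0.77 ± 0.07 (adjusted p = 0.111). That fit, with 2 residual degrees of freedom, called 0 of the 5498 probe sets. At an unadjusted p under 0.05 it had 20.5% of them, against 18.2% in the unblocked fit of all 10 arrays. These 2 fits differ in their arrays as well as in the block, so the shares do not isolate the block.

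ERV2, the other ER oxidase, had a negative difference that did not pass the test. Its levels were 0.23, 0.20 and 0.08 in αENaC, against a lowest of 0.14, a median of 0.37 and a highest of 0.54 in the controls. The groups overlapped through control 6, which lay inside the αENaC range, while the controls of the first 2 sets all lay above every αENaC array. The difference was −0.21 ± 0.10 (adjusted p = 0.285), with a 95% interval of −0.42 to 0.0057. It was −0.29 within title numbers 1 to 4 and −0.44 within 5 and 6. With the title number set as a fixed block it was −0.34 ± 0.07 and passed (adjusted p = 0.0195), where 6.86% of all probe sets were called lower. Without quantile normalization it was −0.031 (adjusted p = 0.918).

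The oxidases were then compared on the same array, as the ERO1 level minus the ERV2 level. The size of such a ratio carries no meaning of its own, since the probes differ, and a change in it shows unequal change only. The ratio was 2.04, 2.06 and 2.09 on the αENaC arrays. On the controls it ran from 0.88 to 1.01, with a mean of 0.97 ± 0.05 (SD, n = 7), although both genes differed between control sets. It was 1.09 higher in αENaC (exact permutation test over 120 regroupings of the arrays, 2-sided p = 0.0167, the smallest this design can give, and 0.025 adjusted over 3 ratios). That test exchanges all arrays freely. Regrouping only within title number sets cannot give a p below 0.167, nor can exchanging only same-numbered pairs give one below 0.25, and the ratio of ERO1 to ERV2 reached both limits. Within title numbers 1 to 4 the difference was 1.13 and within 5 and 6 it was 1.08.

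ERO1 also changed more than PDI1, the main protein it oxidises. The ratio of ERO1 to PDI1 lay between −1.19 and −1.12 in αENaC and between −2.04 and −1.60 in the controls, with no overlap. It was 0.71 higher in αENaC (exact permutation p = 0.0167, adjusted p = 0.025), and 0.59 and 0.48 higher within the first and second sets. It too reached the lowest p that regrouping within sets or pairs can give. The ratio of EUG1 to PDI1 was 0.24 higher in αENaC and its groups overlapped (exact permutation p = 0.15, adjusted p = 0.15). It was 0.28 higher within the first set and −0.15 within the second. Without quantile normalization it was 0.65 higher and passed (adjusted p = 0.0333). Median centring gives the identical value, since it shifts both genes of an array alike. These 3 ratios were chosen with earlier results for ERO1 and PDI1 known.

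**Figure D2:**
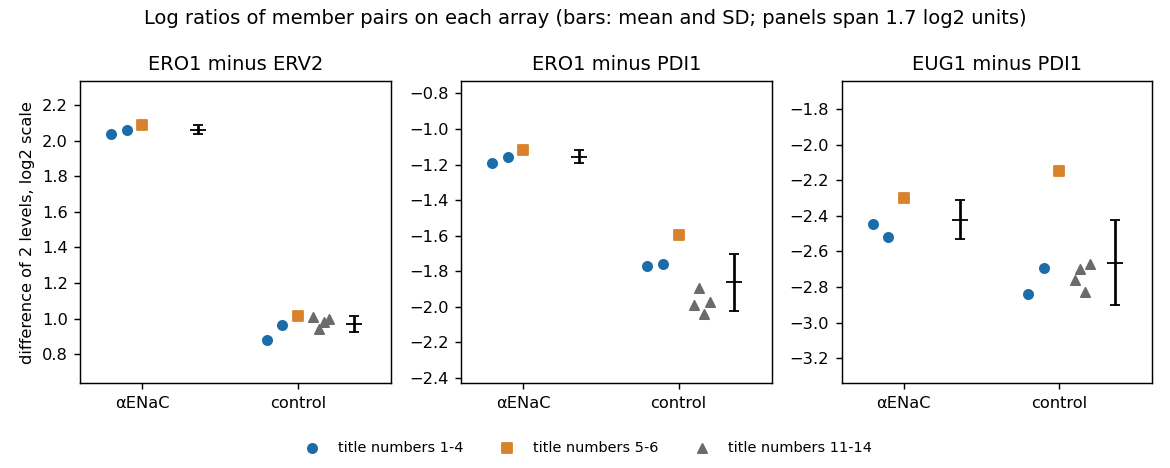
Difference between the log2 levels of 2 genes on the same array, for 3 pairs, with αENaC arrays left of control arrays and bars for the mean and SD. ERO1 minus ERV2 is between 2.04 and 2.09 on the αENaC arrays, against 0.88 to 1.01 on the controls, whereas EUG1 minus PDI1 overlaps between the groups.

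PDI1, the abundant and essential isomerase, differed little. It had levels of 3.46, 3.42 and 3.29 in αENaC, against a lowest of 3.13, a median of 3.19 and a highest of 3.38 in the controls. Control 4 was the only control inside the αENaC range, and the other 6 controls lay below it. The difference was 0.18 ± 0.07 (adjusted p = 0.224), or 1.13-fold with a 95% interval of 1.01 to 1.27. It was 0.25 within title numbers 1 to 4 and 0.16 within 5 and 6.

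The direction for PDI1 depended on the scaling between arrays, at −0.25 when arrays were centred on their medians and −0.089 without quantile normalization. PDI1 is bright, above 97.6% of the probe sets tested. The 99th percentile of signal was 8.12 to 9.03 array means on the arrays numbered 1 to 4. On the other 6 it was 10.6 to 11.8. The narrower 4 comprise 2 of the 3 αENaC arrays but only 2 of the 7 controls. Within a set the order did not need the normalization. Before it, PDI1 stood at 8.50 and 8.68 array means in αENaC 1 and 2, against 8.16 and 7.92 in controls 1 and 2, and at 10.2 in αENaC 3 against 9.77 in control 3.

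EUG1 encodes a close relative of PDI1 that can replace part of its function when overproduced and whose active sites lack the second cysteine. Its levels were 1.01, 0.90 and 0.99 in αENaC, against a lowest of 0.34, a median of 0.50 and a highest of 0.98 in the controls. The highest control was control 3, and the other 6 reached no more than 0.62. The difference was 0.42 ± 0.13 (adjusted p = 0.118). It was 0.53 within title numbers 1 to 4, but 0.0098 within 5 and 6, where αENaC 3 and control 3 stood side by side. The test of that gap between the sets did not pass (adjusted p = 0.0694). Without control 3 the difference in EUG1 was 0.49 and passed (adjusted p = 0.0140).

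MPD1 is an isomerase whose overproduction can keep cells alive without PDI1. Its levels hardly varied in αENaC, at 1.13, 1.08 and 1.07. In the controls they ran from 0.05 through a median of 0.75 to 0.92. All controls lay below all αENaC arrays, but they were ordered by set, with 0.05 and 0.08 in controls 1 and 2, 0.53 in control 3 and 0.75 to 0.92 in controls 4 to 7. The difference of 0.53 ± 0.20 did not pass (adjusted p = 0.193).

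Within title numbers 1 to 4 MPD1 was 1.04 higher in αENaC, the largest such value of the 7 genes, and within 5 and 6 it was 0.54 higher. The second value rests on 1 array of each group. The effect in the second set minus that in the first was −0.50 (adjusted p = 0.0316), in a test that was added after the data were seen, takes its spread from the arrays of the other sets and was passed by 17.4% of all probe sets, so it does not show by itself that the sets differ in MPD1. With the set as a fixed block the difference was 0.87 ± 0.10 (adjusted p = 0.00268), where 7.38% of all probe sets were called higher. Without controls 4 to 7 and with no block it was by construction the same 0.87 (adjusted p = 0.0845). Controls 4 to 7 have no αENaC array in their set, and the other sets are balanced. The part of the control sets in the MPD1 difference was not tested further.

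MPD2, another isomerase that can substitute for PDI1 when overproduced, rose by a small amount. It had levels of −0.07, −0.08 and 0.01 in αENaC, against a lowest of −0.53, a median of −0.41 and a highest of −0.24 in the controls. The groups did not overlap. The difference was 0.35 ± 0.08 (adjusted p = 0.0470), or 1.28-fold with a 95% interval of 1.14 to 1.44. It was 0.20 within title numbers 1 to 4 and 0.43 within 5 and 6.

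The MPD2 call stood close to the threshold. It passed without control 2 or control 3 and missed without each of αENaC 1 to 3 and controls 1 and 4 to 7, with adjusted p from 0.0521 to 0.229. Its difference over those 10 repeats stayed between 0.32 and 0.38. It was 0.41 with median centring (adjusted p = 0.134) and 0.56 without quantile normalization (adjusted p = 0.118). With the title number set as a fixed block it was 0.27 ± 0.06 and passed (adjusted p = 0.0252), where 7.38% of all probe sets were called higher. With the replicate block it was 0.27 ± 0.08 (adjusted p = 0.207). Without controls 4 to 7 and with no block it was by construction the same 0.27 (adjusted p = 0.225), since the replicate block uses the same arrays.

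EPS1 encodes a membrane-anchored member of the family, known for holding and clearing a misfolded form of the plasma membrane proton pump Pma1. Its levels were 0.21, 0.13 and 0.30 in αENaC, against a lowest of 0.05, a median of 0.15 and a highest of 0.44 in control 4. The αENaC values fell inside the control range. The difference was 0.04 ± 0.09 (adjusted p = 0.844), and its 95% interval ran from −0.16 to 0.24. Within the first and second sets it was 0.11 and 0.10. PMA1 itself was at 0.05 ± 0.08 (adjusted p = 0.768).

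**Figure D3:**
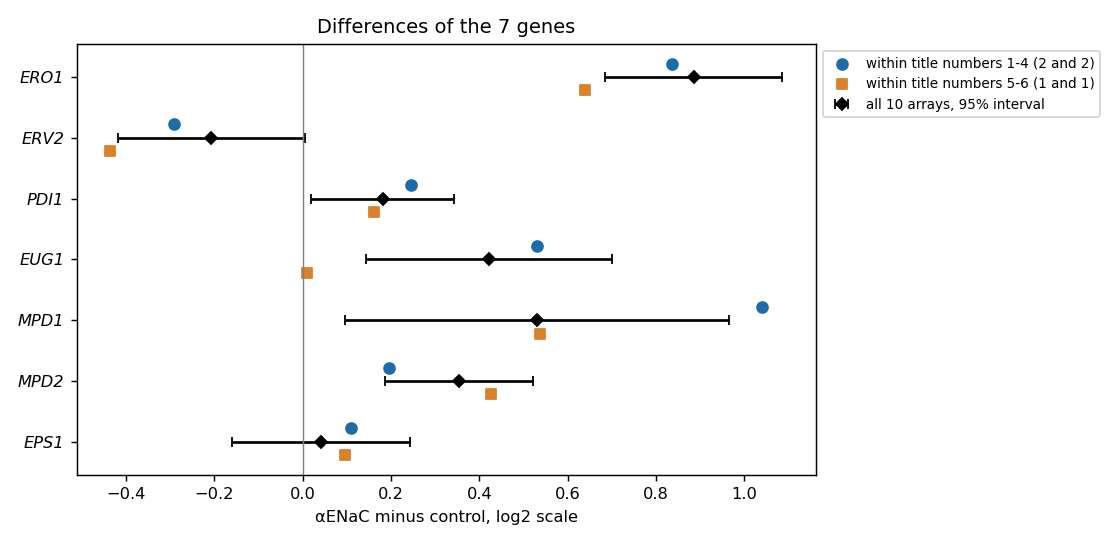
Difference between αENaC and control for the 7 genes on the log2 scale, with the 95% interval over all 10 arrays (diamonds) and the differences within title numbers 1 to 4 (circles) and 5 and 6 (squares). ERO1 is at 0.89 with 0.84 and 0.64 within the sets, ERV2 is negative in all 3 comparisons, and the interval of MPD1 is the widest.

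Genes with the most similar pattern to each member were listed as the 3 highest Pearson r over the 10 arrays, among 4937 probe sets above background. These are descriptions, and the arrays share their title number sets. Each r spans both groups, so whether a neighbour was called depends in part on the member it was chosen by and is no separate result. ERO1 was most like ASI3, which encodes part of the Asi ubiquitin ligase (r = 0.993), AAD4, whose probes are shared between sequences (r = 0.981), and the cytosolic Hsp70 gene SSA3 (r = 0.981). MPD2 was most like the palmitoyltransferase gene SWF1 (r = 0.971), the dolichol kinase gene SEC59 (r = 0.970) and YGR117C (r = 0.950). Each of ASI3, AAD4, SSA3, SWF1 and SEC59 was itself called higher in αENaC, with differences of 0.45, 0.54, 0.47, 0.53 and 0.42 (adjusted p from 0.0103 to 0.0230).

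The remaining members had other neighbours. MPD1 was most like PBA1, a proteasome assembly chaperone gene (r = 0.979), AIM25 (r = 0.966) and the peroxiredoxin gene AHP1 (r = 0.966). EUG1 was most like YDR222W (r = 0.959), YBR137W (r = 0.957) and MTQ1 (r = 0.947). For PDI1 they were AFR1 (r = 0.957), the peroxisomal citrate synthase gene CIT2 (r = 0.955) and the mannosyltransferase gene KTR2 (r = 0.943). ERV2 followed CHS5 (r = 0.936), VPS64 (r = 0.925) and the acyl-CoA synthetase gene FAA3 (r = 0.920), and EPS1 followed SEC1 (r = 0.943), ABP1 (r = 0.914) and RIC1 (r = 0.873). None of these 15 neighbours passed the test, which the choice by r over both groups also shapes. No member was among the 3 nearest of another.

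A further 49 genes that work beside the 7 enzymes were read from the same fit. Of these, 6 rose and 1 fell, with a median of 0.05, where 1.36% of all probe sets rose and 0.364% fell. Among 12 ER folding partners 5 rose, none fell and 7 did not pass, with a median of 0.22, against the same 1.36% and 0.364% of all probe sets and their median of 0.02. SIL1, the nucleotide exchange factor of the ER Hsp70 Kar2, was at 0.88 ± 0.12 (adjusted p = 0.00584), with 1.004 and 1.20 within the first and second sets. The other genes that rose were the J protein genes JEM1 (0.66, with 0.52 and 0.82 within the sets) and SCJ1 (0.40, with 0.27 and 0.45), the Hsp70-like chaperone gene LHS1 (0.49, with 0.43 and 0.62) and KAR2 (0.42, with 0.42 and 0.34). Adjusted p for these 4 ran from 0.00318 to 0.0423, and for all 5 from 0.0951 to 0.174 with the replicate block. With median centring KAR2 was at only 0.0071 (adjusted p = 0.990), and without quantile normalization at 0.17 (adjusted p = 0.370). On the scores as deposited it passed (adjusted p = 0.000627). Like PDI1, KAR2 is bright, above 97.1% of the probe sets tested, and its call depended on the scaling.

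The KAR2 and LHS1 calls were lost without αENaC 1 or αENaC 2, that of SIL1 was lost without αENaC 1, and JEM1 passed without each array in turn. SCJ1 passed only without control 3 or control 4 among the 10 such repeats. Pdi1 forms a complex with the mannosidase Mnl1, and the gene MNL1 was at −0.14 ± 0.11 (adjusted p = 0.552). OST3 and OST6, thioredoxin-like subunits of the N-glycosylation enzyme, were at −0.15 and −0.03 (adjusted p = 0.320 and 0.943).

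Ero1 and Erv2 both need FAD, which cells make from riboflavin. Of 12 genes of riboflavin and FAD synthesis and FAD transport, RIB1 rose, none fell and 11 did not pass, with a median of 0.02. Across all probe sets tested, 1.36% rose and 0.364% fell. RIB1, the first enzyme of riboflavin synthesis, was at 0.41 ± 0.07 (adjusted p = 0.0186; adjusted p = 0.174 with the replicate block), with 0.41 and 0.23 within the sets. Its call was lost without αENaC 1, αENaC 2 or any of controls 5 to 7 (adjusted p from 0.0504 to 0.143). RIB4 was at 0.64 ± 0.19 (adjusted p = 0.109), and FAD1, the FAD synthetase gene, was at 0.17 ± 0.07 (adjusted p = 0.269).

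Other thiol systems were read as well. Of 17 genes of glutathione, thioredoxin and glutaredoxin, OPT1 fell, none rose and 16 did not pass, with a median of 0.02. Of all probe sets, 1.36% rose and 0.364% fell. OPT1, a plasma membrane transporter of glutathione and oligopeptides, fell by 0.55 on the log2 scale (adjusted p = 0.0362; adjusted p = 0.146 with the replicate block), with −0.42 and −0.30 within the sets. That call was lost without αENaC 1, αENaC 2 or any of controls 5 to 7 (adjusted p from 0.0663 to 0.217). GLR1, the glutathione reductase gene, was at 0.25 ± 0.09 (adjusted p = 0.180), and the ER and Golgi glutaredoxin genes GRX6 and GRX7 were at −0.18 and 0.06. The mitochondrial disulfide relay genes ERV1, a relative of ERV2, and MIA40 were at −0.33 ± 0.14 and −0.34 ± 0.13 (adjusted p = 0.257 and 0.212), negative within both sets.

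Of 4 client genes none passed, where 1.36% of all probe sets rose and 0.364% fell. Among them PRC1, the gene of carboxypeptidase Y, a vacuolar protein with several disulfides, was at 0.09 ± 0.12 (adjusted p = 0.733). HAC1 was at 0.16 ± 0.11 and IRE1 at −0.18 ± 0.14 (adjusted p = 0.438 and 0.505), and the arrays do not read HAC1 splicing.

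**Figure D4:**
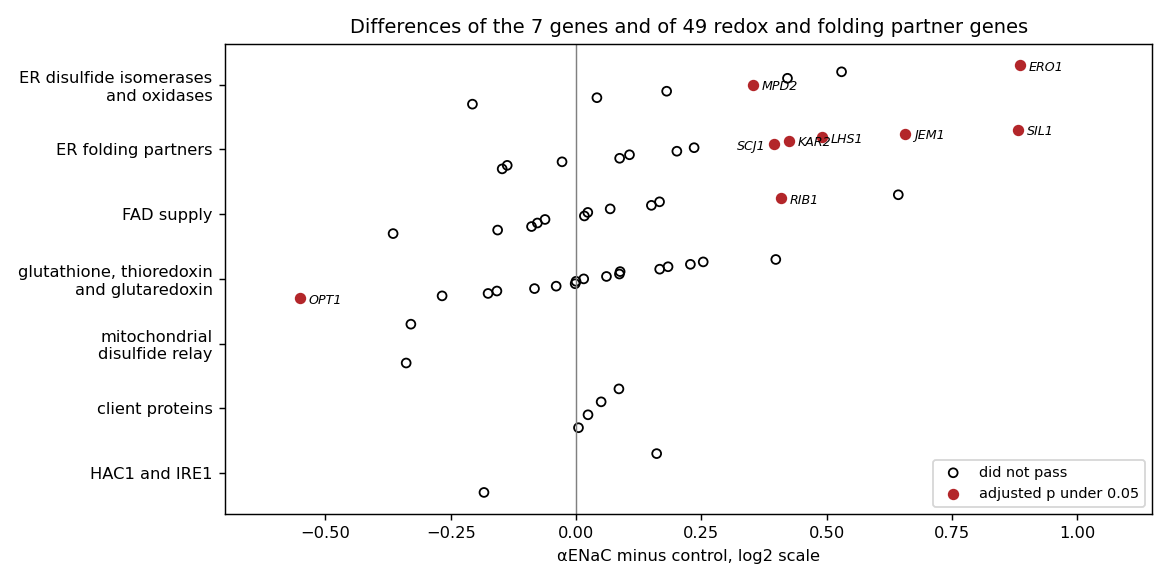
Difference between αENaC and control on the log2 scale for the 7 genes (top row) and for 49 partner genes by list, each point 1 gene. Filled red points passed an adjusted p of 0.05 and open points did not. Of the partner genes, 6 rose, 5 of them ER folding partners, and OPT1 fell.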

How the data were processed

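Values were deposited as a score per probe set. On every array the 10715 scores have mean 0 and SD 1, as z scores of linear intensities would. Labelling used the 3' IVT Express kit on hot phenol RNA, per the labels' protocols. No source used here says how the authors summarised the probes. For each array the lowest score was subtracted and the result divided by the size of that score, which gives array means and takes the lowest value as 0. Then 0.03 was added, log2 taken and arrays quantile normalized. Gene names came from the platform annotation, updated through gene identifiers: 5498 probe sets name 1 S. cerevisiae gene, 1746 are named outside it, 3470 are unnamed and 1 names several.

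Groups were fitted by lmFit and tested with eBayes (limma 3.58.1 under R 4.3.3), 2-sided, with no other term and 8 residual degrees of freedom. The procedure was tested on simulated data with independent arrays, so that test does not cover title number sets or near-identical arrays. Named were all 7 members, the partner genes that passed, 8 partner genes fixed by name, a few other partner genes chosen after their values were seen (MNL1, OST3, OST6, RIB4, GRX6, GRX7, MIA40, PRC1 and PMA1) and the 3 most similar genes of each member. The members, lists and ratios were chosen with earlier results of these data known. Deviations from group means of same-numbered arrays correlated at 0.41, 0.22 and 0.17, each over 0.1. Arrays were therefore also fitted as pairs by number, in the replicate block, while the main fit ignored pairs and sets. Differently numbered arrays correlated too (0.38 for αENaC 1 and control 2, 0.27 for αENaC 2 and control 1, −0.046 to 0.40 for αENaC 3 against controls 4 to 7). Allowing for group, the limma estimate of the correlation within title number sets was 0.72. Alternatives changed the scaling, pseudocount, filter, probe sets tested, variance model, weights, blocks and arrays.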

Additional observations from a re-analysis of the deposited data

Results flagged for a closer look

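Among the 7 controls, a single array stood far from the others in 4 of 22 groups of values examined. The nominal rate of 1 in 20 is no measure of excess here. The groups share the same arrays, and the controls come from differing title number sets. PDI1 at 3.38 and EPS1 at 0.44 were both highest in control 4, the array that correlated least with the others of its title number set. EUG1 at 0.98 and the EUG1 to PDI1 ratio at −2.15, which holds the same EUG1 value, were highest in control 3. The causes were not tested. The effect on MPD1 in title numbers 5 and 6 minus that in 1 to 4 was −0.50, by a test of the difference itself (limma, adjusted p = 0.0316). In the second set it rests on 1 array of each group, so the spread comes from the other sets. The test was added after the data were seen and was passed by 17.4% of all probe sets.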

How the results depend on the processing

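Of 26 alternatives, ERO1 passed under 23, MPD2 under 10 and MPD1 under 5. Among the 26 are 10 that each leave out 1 array, where ERO1 passed in 10, MPD2 in 2 and MPD1 in 0. The passes of all 3 genes include array weights and title numbers 1 to 4 alone. Those fits called large shares of all probe sets, so a pass there says little. Over the 25 on the log2 scale ERO1 lay between 0.74 and 1.02. ERO1 missed with near-identical arrays averaged (0.83, adjusted p = 0.394), with the replicate block (0.77, adjusted p = 0.111) and on title numbers 5, 6 and 11 to 14 alone (0.86, adjusted p = 0.123). The last was added after seeing the data, and its lone αENaC array is assumed to vary like the controls. ERV2 lay between −0.34 and −0.031 over those 25 and at −0.0079 on the z scores. The following counts are of probe sets called higher and lower, against 75 and 20, then members called higher, against 2, then partner genes called higher and lower, against 6 and 1. They were 34, 5, 1, 2 and 0 with median centring, and 45, 1, 1, 2 and 0 without quantile normalization, which shifts the median of all probe sets by 0.14. In both of these scalings the EUG1 to PDI1 ratio was 0.65 higher and passed, which is a single result, since centring leaves a ratio within an array unchanged. The counts were 18, 2, 1, 1 and 0 on title numbers 1 to 6, where the ERO1 ratios were 1.11 and 0.55 and the exact test cannot go below 0.1. They were 6, 3, 0, 1 and 0 on title numbers 5, 6 and 11 to 14, and 0 throughout with the replicate block or with averaging. They were 406, 377, 3, 11 and 5 with the set as a fixed block, 358, 259, 4, 10 and 2 with it as a random block, 1559, 1750, 5, 21 and 8 on title numbers 1 to 4, and 2365, 1761, 5, 22 and 17 with array weights, whose estimate did not converge. ERV2 was the 1 member called lower in the first 3 of these 4. With trend and robust variance 1 member was called. On the z scores 89 probe sets were higher and 4 lower, with 6 partner genes higher and 0 lower. The 3 members called higher there were ERO1, MPD1 and EUG1 (adjusted p = 0.00421, 0.0252 and 0.0476), while MPD2 missed (adjusted p = 0.0705). Leaving out each array gave 11 to 162 probe sets higher, 1 to 86 lower, 1 to 3 members higher, and 1 to 7 partner genes higher with 0 to 1 lower. With the replicate block, added after seeing the data for the ratios, ERO1 to ERV2 was 1.11 and ERO1 to PDI1 0.55 higher (adjusted p = 0.375 each), and with arrays regrouped within title number sets, likewise added, the values of 1.09 and 0.71 had an adjusted p of 0.25. Neither test could pass. With each array left out the ratios were 1.08 to 1.10 for ERO1 to ERV2, 0.68 to 0.75 for ERO1 to PDI1 and 0.18 to 0.33 for EUG1 to PDI1. Without an αENaC array the exact test cannot go below 0.0556. Signs turned for PDI1 (−0.25 with median centring and −0.089 without quantile normalization), HAC1 (−0.066 with median centring), IRE1 (0.036 without quantile normalization and 0.012 with the set or replicate block or on title numbers 1 to 6) and EPS1 (−0.012 with array weights). Apart from what fewer arrays explain, the causes were not tested.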
